A study of Mus musculus with 18 samples.

Results

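The genes described are 10 that encode inhibitory receptors and ectonucleotidases, the surface molecules most often grouped as immune checkpoints: Pdcd1, Lag3, Havcr2, Tigit, Ctla4, Cd160, Cd200r1, Cd300a, Entpd1 and Nt5e. They were chosen by symbol, with earlier results of these data known, and matched to the Ensembl identifiers of the count table. They are 10 of 56953 genes listed there. All 10 passed the filter on low counts, which kept 16747 genes. RNA was sequenced from natural killer (NK) cells of mouse spleen kept for 7 days at 1% oxygen in medium with 1700 U/ml of interleukin 2, so no group was grown at ambient oxygen. The 18 libraries form 6 groups of 3 biological replicates from 3 mouse lines. The flox groups had loxP-flanked alleles, written Hif1a fl/fl, Ahr fl/fl or both, and no Cre. The matching knockout (KO) groups had the same alleles with Ncr1 iCre, a recombinase driven from the gene of the NK receptor NKp46. Cre was present on the KO side only, and no group had Cre without floxed alleles, so Cre and deletion cannot be told apart. Each KO group was compared with the flox group of its own line.

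Inhibitory receptors dampen NK and T cell responses when they meet ligands on neighbouring cells, in several cases through phosphatases recruited to tyrosine motifs in their cytoplasmic tails. The ectonucleotidases CD39 (Entpd1) and CD73 (Nt5e) act in sequence outside the cell: CD39 removes phosphates from ATP and ADP to give AMP, and CD73 turns AMP into adenosine, which restrains lymphocytes. HIF-1α, the product of Hif1a, is stabilised in low oxygen, and the aryl hydrocarbon receptor (AhR) responds to small ligands; both act as transcription factors with the same partner, ARNT.

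Because the deleted genes encode factors that bind short DNA cores, the promoters of the members are shown first. The RefSeq table used (GRCm38.p6) held 10 windows for 8 members, each running from 250 bases before to 50 bases after a transcription start. It held none for Lag3 and Cd200r1, so their promoters were not searched. The counts were made on GRCm39, so these positions are not positions in the authors' build. The cores searched on both strands were ACGTG, of the hypoxia response element, and GCGTG, of the xenobiotic response element to which AhR binds; the pair differ in the opening base, so a site on a given strand matches only 1 of them. Below are the 250 bases upstream of the start, 5′ to 3′ on the gene's strand, with a core, read on either strand, in capitals. Havcr2 (chr11:46454681-46454930, plus strand), Ctla4 (chr1:60908775-60909024, plus strand) and Entpd1 (chr19:40612116-40612365, plus strand, the upstream of its windows) are shown as the members that fell in Hif1a KO cells. Nt5e (chr9:88327359-88327608, plus strand) is shown as the enzyme that follows CD39, and Cd300a (chr11:114889791-114890040, plus strand) as the member with the largest rise in Hif1a KO cells.
Havcr2: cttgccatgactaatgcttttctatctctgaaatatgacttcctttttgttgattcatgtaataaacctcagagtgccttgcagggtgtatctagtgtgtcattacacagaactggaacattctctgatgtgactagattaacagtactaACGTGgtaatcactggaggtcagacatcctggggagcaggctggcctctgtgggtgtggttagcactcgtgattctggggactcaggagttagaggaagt
Ctla4: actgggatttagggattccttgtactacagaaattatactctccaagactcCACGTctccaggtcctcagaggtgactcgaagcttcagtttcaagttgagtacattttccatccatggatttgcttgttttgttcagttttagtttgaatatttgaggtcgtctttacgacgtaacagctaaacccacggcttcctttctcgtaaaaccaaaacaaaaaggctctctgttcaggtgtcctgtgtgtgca
Entpd1: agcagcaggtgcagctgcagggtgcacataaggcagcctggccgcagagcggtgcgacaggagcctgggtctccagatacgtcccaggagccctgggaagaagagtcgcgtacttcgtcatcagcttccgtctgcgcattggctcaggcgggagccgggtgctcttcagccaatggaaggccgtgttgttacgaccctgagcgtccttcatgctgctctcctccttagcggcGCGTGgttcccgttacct
Nt5e: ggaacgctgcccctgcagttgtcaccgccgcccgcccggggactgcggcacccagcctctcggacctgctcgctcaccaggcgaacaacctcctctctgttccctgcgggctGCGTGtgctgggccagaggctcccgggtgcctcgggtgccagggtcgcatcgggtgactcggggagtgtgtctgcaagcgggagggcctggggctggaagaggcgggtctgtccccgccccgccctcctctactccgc
Cd300a: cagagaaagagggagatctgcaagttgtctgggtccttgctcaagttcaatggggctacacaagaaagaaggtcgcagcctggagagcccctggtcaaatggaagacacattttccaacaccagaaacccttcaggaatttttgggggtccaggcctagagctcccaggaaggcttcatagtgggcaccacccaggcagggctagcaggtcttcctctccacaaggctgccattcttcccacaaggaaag

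Counting bases from the start, an ACGTG core began at -100 in Havcr2, and at -45 in Tigit. Ctla4 held 2, of which 1 lies past the printed stretch. A GCGTG core began at -18 in Entpd1, at -138 in Nt5e and at 8 in 1 of the 2 Cd160 windows. Neither core was present in the windows of Pdcd1 and Cd300a, in the other Cd160 window or in the other Entpd1 window. In all, ACGTG was found in 3, GCGTG in 3 and either core in 6 of the 10 windows. Among all 32851 windows of 300 bases in the table, 19.6% held ACGTG, 32.4% held GCGTG and 43.8% held either. A match of letters is a description of the window and not a measured binding site.

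The libraries held 54420649 to 55732940 counts. Gene-level counts check neither deletion: Hif1a transcripts were 1.58 ± 0.11 (SE, log2) higher in Hif1a KO and 1.68 ± 0.11 higher in Hif1a Ahr KO cells than in their flox groups, and Ahr was not called in any line. Ncr1, the locus that carries the Cre, was 0.92, 0.97 and 1.06 higher (log2) in the Hif1a, Ahr and Hif1a Ahr KO groups. The 12 NK cell markers summed to 30050 to 35300 CPM (counts scaled to a common library size) in Hif1a flox and 22280 to 24810 in Hif1a KO libraries, without overlap; 4 rose and 6 fell there, among them Prf1, which fell by 2.32. In the Ahr line 2 rose and 0 fell, and in the Hif1a Ahr line 4 rose and 1 fell. The sums of the Ahr line overlapped, at 28620 to 38160 CPM in flox and 34740 to 40880 in KO libraries. In the Hif1a Ahr line the sum was lower in KO, at 28710 to 33690 CPM in flox and 26040 to 27230 in KO libraries, without overlap. Over all genes tested, 17.6% rose and 17.8% fell in the Hif1a line. These shares were 2.14% and 4.78% in the Ahr line and 14.8% and 16.5% in the Hif1a Ahr line. The part of the NK cell markers in the results below was not tested. Labels call the replicates biological without saying whether each is an animal, so p-values measure the spread between these samples.

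Among flox cells, levels per length differed widely between the members. On the scale of CPM per kilobase of exon, Tigit stood highest in each flox group, at means of 58.1 to 73.1, followed by Havcr2 at 47.1 to 52.1. Cd160 (32.0 to 46.5), Entpd1 (25.4 to 31.8) and Lag3 (26.9 to 30.1) came next, and in Hif1a and Ahr flox cells the mean ± SD of each met that of its neighbour in this order. In Hif1a Ahr flox cells Cd160 (46.5 ± 12.7) stood apart above Lag3 (27.4 ± 3.79) and Entpd1 (25.4 ± 5.65). There Cd160 lay within the spread of Havcr2 (47.1 ± 10.7, SD, n = 3). Ctla4 (6.22 to 10.0), Cd200r1 (up to 7.09, in Hif1a Ahr flox cells) and Nt5e (3.22 to 3.96) were lower. Cd300a, at 0.0878 to 0.110, and Pdcd1, at 0.0191 to 0.0602, were at the bottom in every flox group. The 3 flox groups were compared with each other, and no member differed among them by edgeR (adjusted p from 0.722 to 0.945; 41 of 16747 genes, 0.245%, did) or by limma voom. At an unadjusted p under 0.05 by edgeR's quasi-likelihood test there was 1 member, Tigit (0.0336). Ahr itself was among the 41 genes that differed (adjusted p = 0.0326 by edgeR). The flox groups were thus not alike for a deleted gene, and every comparison between lines rests on them.

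**Figure D1:**
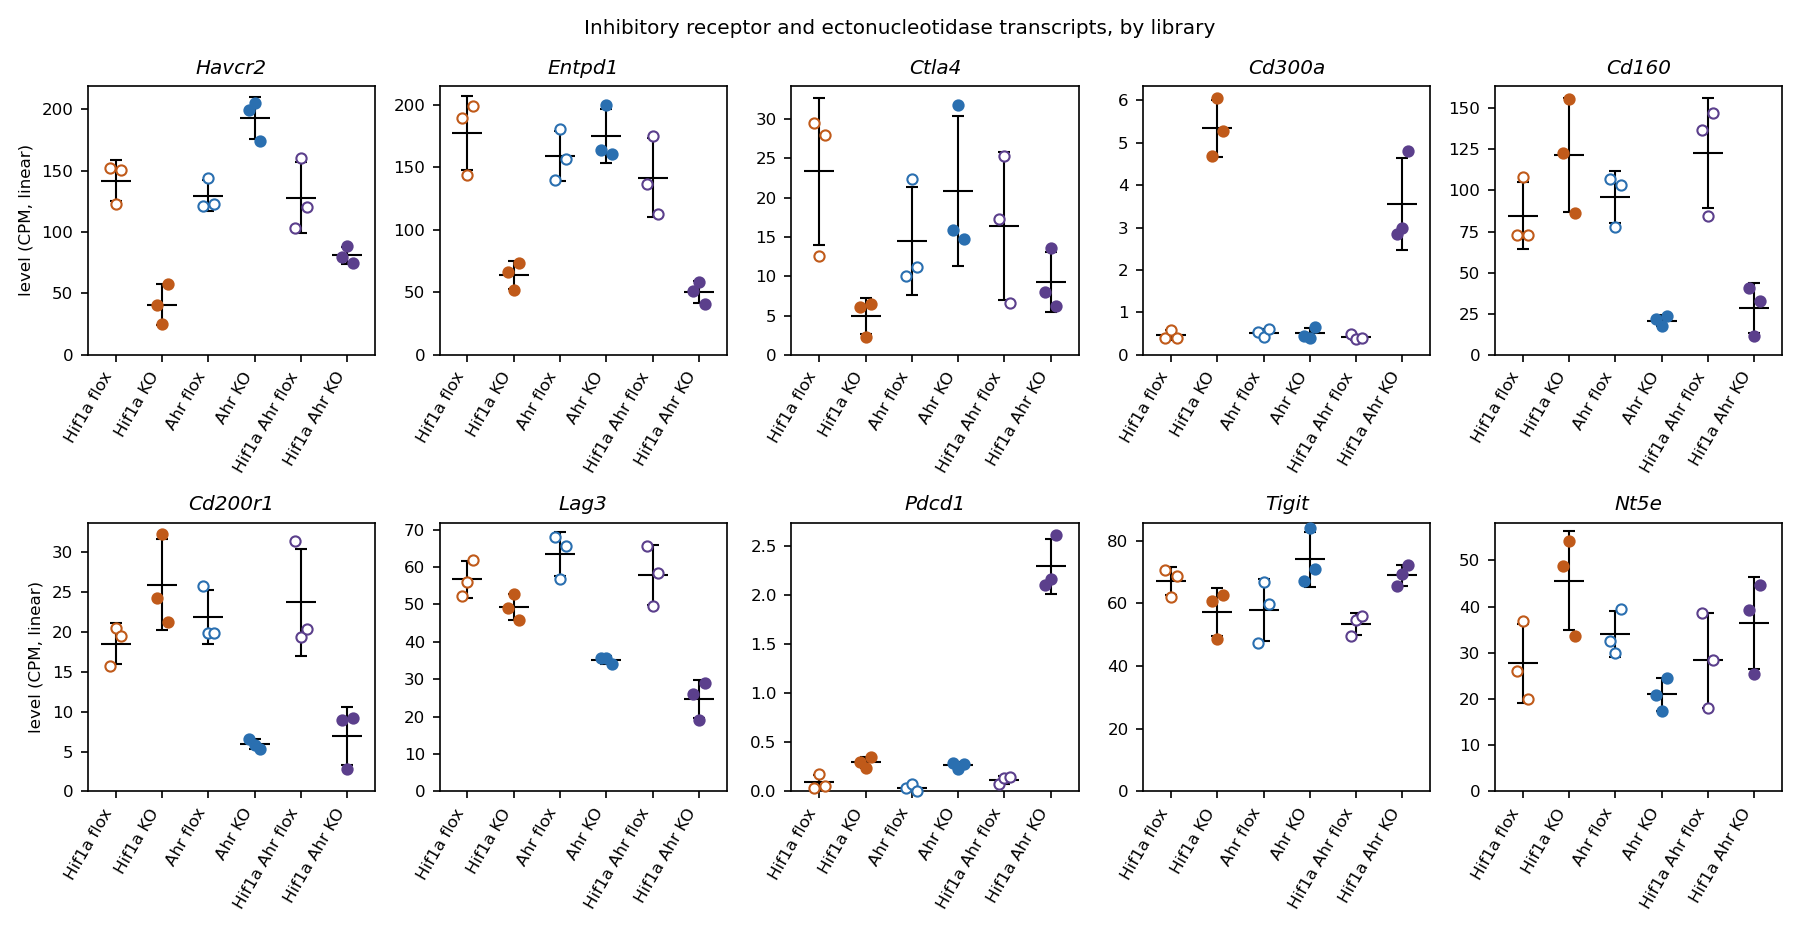
Each panel plots the level of a member in CPM on a linear axis for the 6 groups; points are libraries, open for flox and filled for KO, with the mean and SD (n = 3). Havcr2 and Entpd1 are low in the groups lacking Hif1a, Cd160 and Cd200r1 are low in those lacking Ahr, and Pdcd1 stands at 2.10 to 2.61 CPM in Hif1a Ahr KO cells and at 0.353 or less in the 15 other libraries.

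The members called were not the same in the 3 lines. The members were chosen with earlier results of these data known, so their counts beside the shares of all genes are descriptions only. In Hif1a KO cells 5 of the 10 members were called (adjusted p under 0.05), where 35.4% of all genes tested were: Cd300a and Pdcd1 rose, and Havcr2, Ctla4 and Entpd1 fell. In Ahr KO cells 4 were called, where 6.92% of all genes were (2.14% higher and 4.78% lower): Pdcd1 rose, and Lag3, Cd160 and Cd200r1 fell. In Hif1a Ahr KO cells 8 were called, where 31.3% of all genes were: Pdcd1, Cd300a and Tigit rose, and Lag3, Havcr2, Cd160, Entpd1 and Cd200r1 fell. The median log2 fold change of the members was 0.14, 0.05 and -0.74 in these comparisons, beside -0.01, 0.00 and -0.02 over all genes tested. KO and flox values did not overlap for 6 members in the Hif1a line, 7 in the Ahr line and 8 in the Hif1a Ahr line; over all genes tested this share was 49.8%, 29.0% and 37.2%. In bulk RNA, fewer cells of a type and less RNA per cell cannot be told apart, and this holds for each value below.

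**Figure D2:**
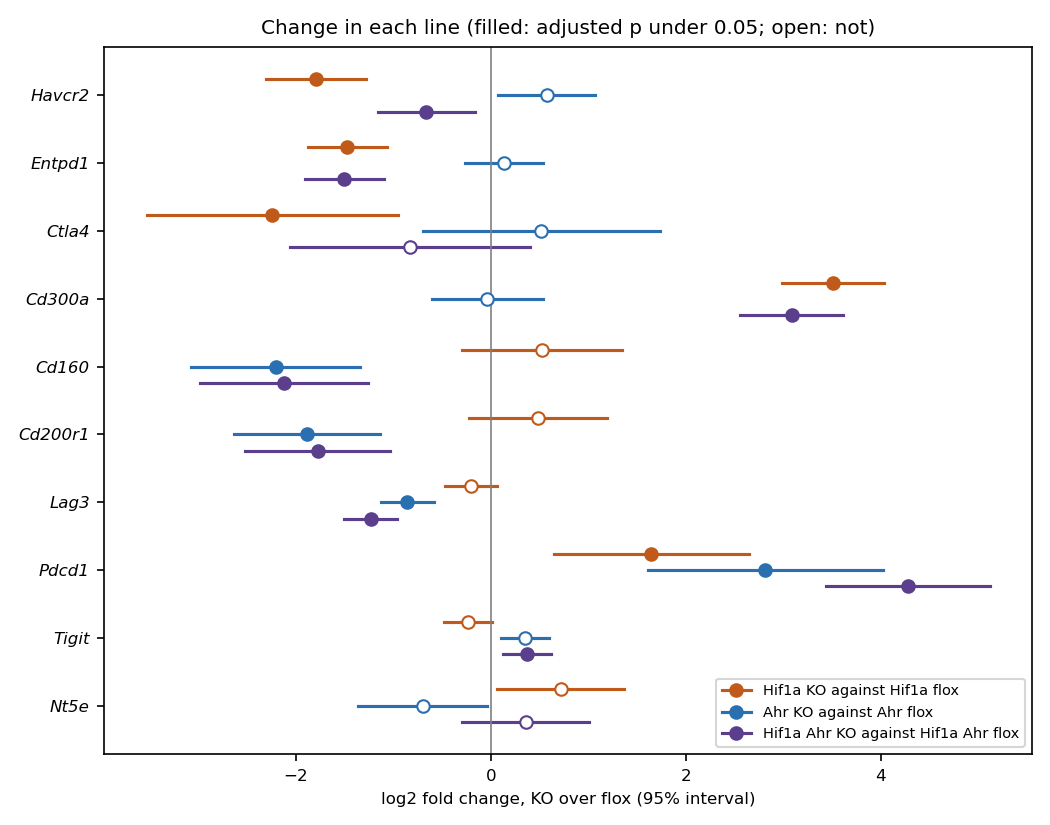
The log2 fold change of KO over flox is plotted for each member in each line, with its 95% interval; filled points have an adjusted p under 0.05. Cd300a and Entpd1 have filled points in the Hif1a and Hif1a Ahr lines, Cd160, Cd200r1 and Lag3 in the Ahr and Hif1a Ahr lines, and Pdcd1 in all 3.

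Pdcd1 encodes PD-1, a receptor that restrains activated lymphocytes and is the target of checkpoint antibodies. Its transcript was scarce in every flox library. The 3 Hif1a flox libraries held 0.0379, 0.180 and 0.0567 CPM, and the 3 Hif1a KO libraries 0.294, 0.239 and 0.353. In the Ahr line, flox libraries stood at 0.0346, 0.0760 and 0 CPM and KO libraries at 0.293, 0.232 and 0.282. The Hif1a Ahr flox libraries held 0.0719, 0.131 and 0.146 CPM, and the Hif1a Ahr KO libraries 2.10, 2.16 and 2.61. KO libraries lay above flox libraries in each line without overlap, and those with both deletions lay above every other library. These values rest on 0 to 10 counts in flox libraries, 14 to 20 in Hif1a KO, 12 to 16 in Ahr KO and 117 to 149 in Hif1a Ahr KO libraries. Pdcd1 rose by 1.65 ± 0.47 (SE, log2; adjusted p = 0.0113) in Hif1a KO, 2.82 ± 0.57 (adjusted p = 0.0059) in Ahr KO and 4.28 ± 0.40 (adjusted p = 2.68e-07) in Hif1a Ahr KO cells. The call in the Hif1a line was lost without Hif1a flox replicate 1 (1.29; adjusted p = 0.0621) or replicate 3 (1.40; adjusted p = 0.0561). Even its highest level, a mean of 1.19 CPM per kilobase, was the ninth of the 10 members in Hif1a Ahr KO cells.

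Ctla4 encodes CTLA-4, which competes with the costimulatory receptor CD28 for CD80 and CD86. It stood at 29.5, 12.6 and 27.9 CPM in Hif1a flox and at 6.11, 2.29 and 6.42 CPM in Hif1a KO libraries. The groups did not overlap, and Ctla4 fell by 2.24 ± 0.59 (SE, log2; adjusted p = 0.0102). Replicate 2 was the lowest library on both sides. In the Ahr line it stood at 9.97, 22.4 and 11.1 CPM in flox and 15.9, 31.8 and 14.7 CPM in KO libraries, which overlapped (0.52 ± 0.56; adjusted p = 0.685). Values of 17.2, 25.3 and 6.57 CPM in Hif1a Ahr flox and 8.02, 13.5 and 6.19 CPM in Hif1a Ahr KO libraries overlapped (-0.82 ± 0.57; adjusted p = 0.309).

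Havcr2 encodes TIM-3, a receptor for galectin 9 and other ligands that mature NK cells carry. The Hif1a flox libraries held 152, 123 and 151 CPM and the Hif1a KO libraries 40.5, 24.8 and 57.7. Every Hif1a KO library lay far below every flox library, and Havcr2 fell by 1.79 ± 0.24 (SE, log2; adjusted p = 5.8e-05). With Ahr deleted alone the order was the opposite: 121, 144 and 123 CPM in flox and 199.7, 205 and 174 CPM in KO libraries, again without overlap. That difference, 0.57 ± 0.23, missed the threshold (adjusted p = 0.171) but was called in a fit of the line's own 6 libraries (0.57; adjusted p = 0.00364). With both genes deleted the libraries stood at 79.9, 88.6 and 74.5 CPM beside 103, 160.1 and 121 in their flox group, and Havcr2 fell by 0.66 ± 0.23 (adjusted p = 0.0439). That call was lost when any library of the line except Hif1a Ahr flox replicate 1 was left out (adjusted p from 0.0692 to 0.184) and without the filter on low counts (adjusted p = 0.123).

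Lag3 encodes LAG-3, a CD4-like receptor for MHC class II and other ligands. It stood at 52.1, 56.0 and 61.9 CPM in Hif1a flox and 49.0, 52.8 and 45.9 CPM in Hif1a KO libraries, which overlapped (-0.20 ± 0.13, SE, log2; adjusted p = 0.235). Ahr flox libraries held 68.1, 56.9 and 65.5 CPM and Ahr KO libraries 35.8, 35.6 and 34.0, a log2 change of -0.85 ± 0.13 (adjusted p = 0.000644). Hif1a Ahr flox libraries held 65.5, 49.5 and 58.4 CPM and Hif1a Ahr KO libraries 26.0, 19.0 and 29.0, where Lag3 fell by 1.23 ± 0.13 (adjusted p = 1.74e-06). In both lines that lost Ahr, all KO libraries lay below all flox libraries.

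Tigit encodes TIGIT, which competes with the activating receptor CD226 for the poliovirus receptor and nectin 2. Its difference between KO and flox was no larger than 0.37 (log2) in any line. In the Hif1a line it stood at 70.7, 62.0 and 68.9 CPM in flox and 60.6, 48.6 and 62.7 CPM in KO libraries, which overlapped (-0.23 ± 0.12, SE, log2; adjusted p = 0.142). The flox libraries of the Ahr line held 47.4, 67.0 and 59.8 CPM and the KO libraries 67.2, 84.0 and 71.1 (0.35 ± 0.12; adjusted p = 0.0807). The KO libraries of the Ahr line lay above the flox libraries by a narrow margin. Hif1a Ahr KO libraries, at 65.5, 69.4 and 72.2 CPM, lay above their flox libraries at 49.5, 54.8 and 56.0, and Tigit rose by 0.37 ± 0.12 (adjusted p = 0.0225). The call was lost without Hif1a Ahr flox replicate 1 (adjusted p = 0.0884), Hif1a Ahr KO replicate 2 (adjusted p = 0.0618) or replicate 3 (adjusted p = 0.0780), and without the low-count filter (adjusted p = 0.0517). The Ahr difference was called without Ahr flox replicate 2 (0.47; adjusted p = 0.0246) and by DESeq2 (0.36; adjusted p = 0.0409).

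Cd160 encodes a GPI-anchored receptor for HVEM and MHC class I molecules that marks part of the NK population. Ahr flox libraries held 107, 77.6 and 103 CPM and Ahr KO libraries 21.7, 17.3 and 23.5, and Cd160 fell by 2.20 ± 0.40 (SE, log2; adjusted p = 0.00566). Hif1a Ahr flox libraries held 137, 84.6 and 147 CPM and Hif1a Ahr KO libraries 40.8, 11.3 and 32.6, where Cd160 fell by 2.12 ± 0.40 (adjusted p = 0.00127). Neither line showed any overlap between KO and flox. In the Hif1a line the order was the other way, with 72.8, 108 and 72.8 CPM in flox and 123, 156 and 86.0 CPM in KO libraries, but the groups overlapped (0.52 ± 0.38; adjusted p = 0.321).

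Cd200r1 encodes the receptor for CD200, an inhibitory ligand on many tissues. It stood at 25.8, 19.9 and 19.9 CPM in Ahr flox and 6.56, 5.88 and 5.32 CPM in Ahr KO libraries, and it fell by 1.89 ± 0.35 (SE, log2; adjusted p = 0.0056). It stood at 31.5, 19.3 and 20.4 CPM in Hif1a Ahr flox and 8.91, 2.76 and 9.15 CPM in Hif1a Ahr KO libraries (-1.77 ± 0.34; adjusted p = 0.00144). Fitted on the 6 libraries of that line alone, the latter fall was not called (-1.77; adjusted p = 0.0587). Hif1a KO libraries, at 24.3, 32.3 and 21.3 CPM, lay above Hif1a flox libraries at 15.7, 20.5 and 19.5 without overlap, and the difference missed the threshold (0.48 ± 0.33; adjusted p = 0.284). Among Hif1a Ahr KO libraries, replicate 2 was the lowest for Lag3, Cd160 and Cd200r1 alike. These falls were called when any library of the line was left out.

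Cd300a encodes a receptor for phosphatidylserine and phosphatidylethanolamine whose tail carries inhibitory motifs. Hif1a flox libraries held 0.401, 0.593 and 0.404 CPM and Hif1a KO libraries 4.70, 6.05 and 5.27, on 21.2 to 32.9 and 272 to 355 counts. Cd300a rose by 3.51 ± 0.25 (SE, log2; adjusted p = 7.5e-09), the largest change of a member in that line. In the Hif1a Ahr line it rose by 3.09 ± 0.25 (adjusted p = 4.42e-08), from 0.484, 0.371 and 0.392 to 2.85, 3.00 and 4.80 CPM. In both lines the KO libraries stood far above every flox library. Ahr flox libraries held 0.534, 0.424 and 0.601 CPM and Ahr KO libraries 0.455, 0.408 and 0.658, which overlapped (-0.04, 95% interval -0.60 to 0.53; adjusted p = 0.962). After these rises Cd300a was still the ninth or the tenth of the members per kilobase of exon.

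Entpd1, the gene for CD39, was lower in KO than in flox cells of both lines that lost Hif1a. Hif1a flox libraries held 189, 144 and 199 CPM and Hif1a KO libraries 66.5, 52.0 and 73.3. Hif1a Ahr flox libraries held 137, 175 and 113 CPM and Hif1a Ahr KO libraries 51.0, 58.5 and 40.6. In both lines KO lay below flox without overlap. Entpd1 fell by 1.47 ± 0.19 (SE, log2; adjusted p = 3.2e-05) in the Hif1a line, and its log2 change in the Hif1a Ahr line had a 95% interval of -1.91 to -1.09 (adjusted p = 3.06e-05). Ahr flox libraries held 140.1, 180.2 and 157 CPM and Ahr KO libraries 164, 199.6 and 161, which overlapped (0.14 ± 0.18, 95% interval -0.26 to 0.53; adjusted p = 0.762).

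Nt5e, the gene for CD73, was not called in any line by the fit over all 18 libraries without pairing. In the Hif1a line its values were higher in KO (48.8, 54.3 and 33.6 CPM) than in flox libraries (26.1, 37.0 and 20.03 CPM), with overlap (0.72 ± 0.30, SE, log2; adjusted p = 0.0834). In the Ahr line they were lower in KO (20.9, 17.5 and 24.6 CPM) than in flox libraries (32.5, 30.1 and 39.5 CPM), without overlap (-0.70 ± 0.31; adjusted p = 0.214). Fitted on the libraries of the Ahr line alone, this difference was called (-0.70; adjusted p = 0.0184). The values thus lay on opposite sides in these 2 lines. Hif1a Ahr flox libraries held 38.5, 18.1 and 28.4 CPM and Hif1a Ahr KO libraries 39.2, 25.4 and 44.7 (0.36 ± 0.30; adjusted p = 0.409). Without Hif1a flox replicate 2 the Hif1a difference was called (0.98; adjusted p = 0.0369).

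Libraries with the same replicate number in the Hif1a and Ahr lines deviated from their group means together, so a fit with the number as a block was also made. In that fit 7 members were called in the Hif1a line, where 40.7% of all genes tested were, and 8 in the Ahr line, where 14.5% were. The members that gained a call in the Hif1a line were Nt5e (0.73 ± 0.10, SE, log2; adjusted p = 8.76e-05) and Tigit (-0.24 ± 0.06; adjusted p = 0.00722). In the Ahr line they were Nt5e (-0.70 ± 0.10; adjusted p = 0.000676), Tigit (0.36 ± 0.06; adjusted p = 0.00158), Ctla4 (0.53; adjusted p = 0.0320) and Havcr2 (0.57; adjusted p = 0.0387). Nt5e was thus higher in KO than in flox in 3 of 3 Hif1a pairs and lower in 3 of 3 Ahr pairs. The plot of libraries joined by replicate number shows that Ctla4 replicate 2 lay apart from the others on both sides in each line while changing in the same direction.

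**Figure D3:**
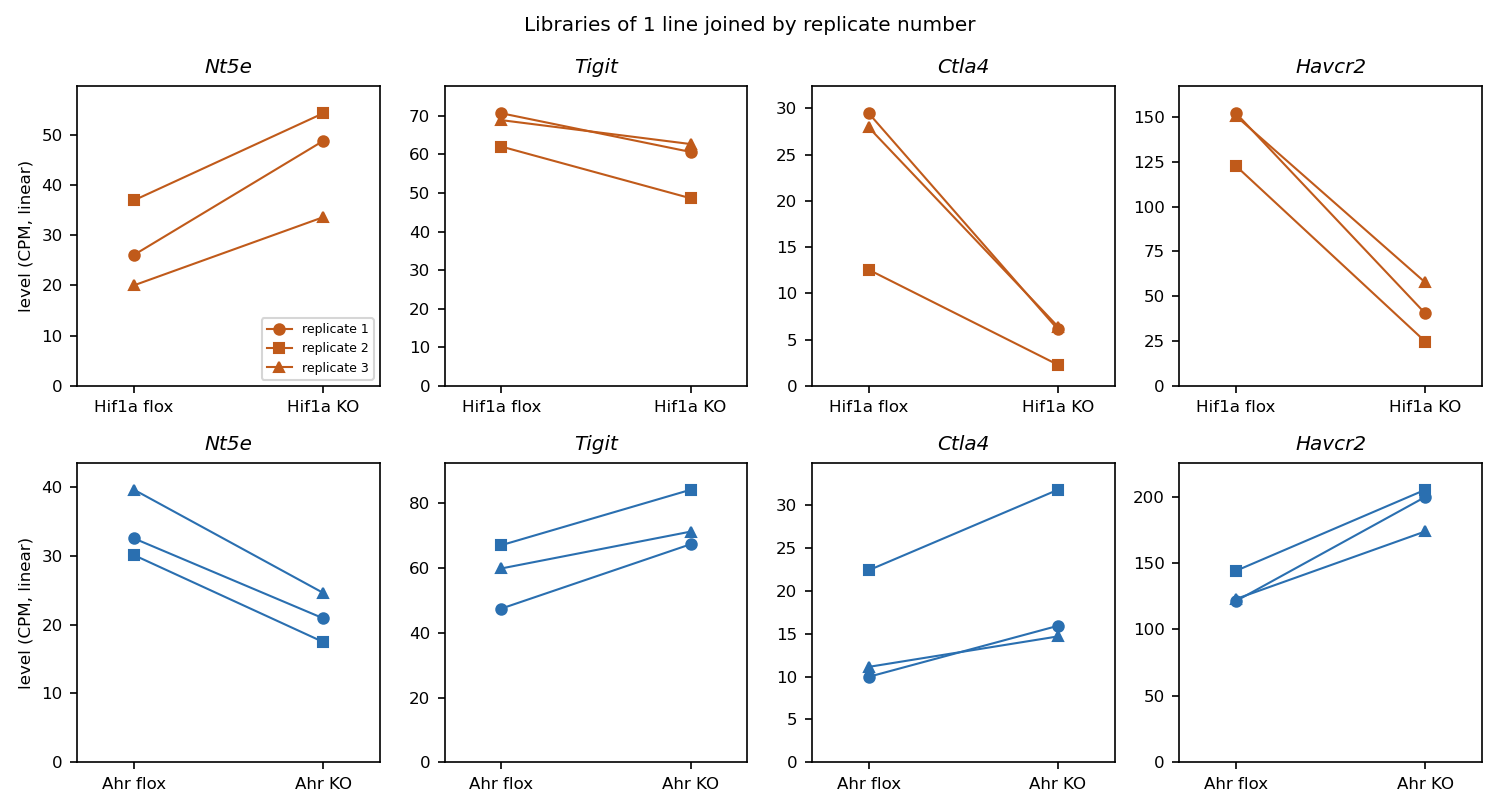
Levels in CPM (linear axes from 0) of Nt5e, Tigit, Ctla4 and Havcr2 are plotted for the Hif1a line (upper panels) and the Ahr line (lower panels), with a line joining the flox and the KO library of each replicate number. All 3 lines slope the same way within each panel, and the slopes of the upper and lower panels are opposite for each of the 4 genes.

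The differences between the lines were tested directly for each member, and the counts of members called are again descriptions only. The Hif1a change and the Ahr change differed for 9 of the 10 members, where 32.3% of all genes tested differed; the exception was Pdcd1 (-1.17 ± 0.79, SE, log2; adjusted p = 0.285). The Hif1a change was the higher for Cd300a (by 3.55 ± 0.37), Cd160 (2.73 ± 0.55), Cd200r1 (2.37 ± 0.48), Nt5e (1.42 ± 0.43) and Lag3 (0.65 ± 0.18). It was the lower for Ctla4 (-2.76 ± 0.81), Havcr2 (-2.37 ± 0.33), Entpd1 (-1.61 ± 0.26) and Tigit (-0.58 ± 0.17). Adjusted p ran from 1.47e-06 for Cd300a to 0.0221 for Nt5e. The Nt5e difference lost its call on leaving out any of Hif1a flox replicates 1 and 3, replicate 2 of Hif1a KO or of Ahr KO, and Ahr flox replicate 3 (adjusted p from 0.0501 to 0.0578), and without the low-count filter (adjusted p = 0.0533). That of Ctla4 lost it on leaving out Ahr KO replicate 2 or either of Ahr flox replicates 1 and 3 (adjusted p from 0.0507 to 0.0568).

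The change with both genes deleted was then compared with each single change. It differed from the Hif1a change for 6 members, where 9.63% of all genes tested did (4.52% higher and 5.11% lower): Pdcd1 (2.63 ± 0.68 higher, SE, log2), Havcr2 (1.13 ± 0.33 higher) and Tigit (0.60 ± 0.17 higher), and Cd160 (-2.64 ± 0.55), Cd200r1 (-2.26 ± 0.47) and Lag3 (-1.03 ± 0.18). It differed from the Ahr change for 3 members, where 16.4% of all genes did (8.59% higher and 7.82% lower): Cd300a (3.12 ± 0.37 higher), Entpd1 (-1.64 ± 0.26) and Havcr2 (-1.24 ± 0.33). Entpd1 and Cd300a in the Hif1a Ahr line were thus not separated from the Hif1a change (-0.03, 95% interval -0.59 to 0.53, and -0.42, -1.16 to 0.31). Cd160 and Cd200r1 were not separated from the Ahr change (0.08, -1.09 to 1.26, and 0.11, -0.92 to 1.14). In the fit without pairing, Havcr2 was the 1 member whose change with both genes deleted differed from each single change, but neither call was stable. Against the Hif1a change it was lost on leaving out any of Hif1a flox replicates 1 and 3, replicates 1 and 2 of Hif1a KO, replicates 1 and 3 of Hif1a Ahr flox, and the 3 Hif1a Ahr KO libraries (adjusted p from 0.0544 to 0.113), and without the low-count filter (adjusted p = 0.124). Against the Ahr change it was lost on leaving out Hif1a Ahr flox replicate 2, Hif1a Ahr KO replicate 3 or either of Ahr flox replicates 1 and 3 (adjusted p from 0.0504 to 0.0579), and without that filter (adjusted p = 0.0604). The Tigit difference from the Hif1a change was lost on leaving out any of Hif1a flox replicates 1 and 3, replicate 2 of Hif1a KO, replicate 1 of Hif1a Ahr flox, and replicates 2 and 3 of Hif1a Ahr KO (adjusted p from 0.0692 to 0.0855), and without that filter (adjusted p = 0.0668). The Pdcd1 difference from the Hif1a change was lost on leaving out any of Hif1a Ahr flox replicate 1 (adjusted p = 0.0599), Hif1a KO replicate 2 (adjusted p = 0.0548) and Hif1a flox replicate 2 (1.69; adjusted p = 0.199).

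The sum of the 2 single changes on the log2 scale was set against the change with both genes deleted. By edgeR no member departed from the sum (adjusted p from 0.889 to 0.986), with 0 members at an unadjusted p under 0.05 and 0 called by DESeq2 or limma voom; 0.0358% of all genes tested were called. Pdcd1 differed from the sum by -0.19 (95% interval -1.61 to 1.24) and Cd300a by -0.39 (-1.32 to 0.55). The intervals for Lag3 (-0.64 to 0.29) and Tigit (-0.18 to 0.67) were the narrowest, and that for Ctla4 (-1.23 to 3.02) was the widest. Departures inside these intervals were not excluded with 3 libraries a group.

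**Figure D4:**
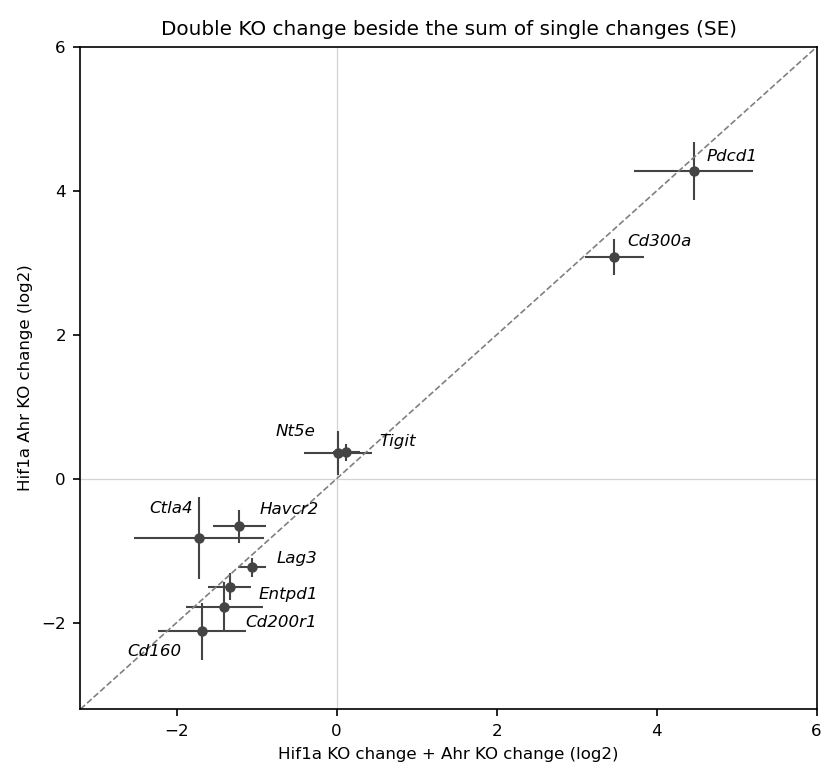
The log2 change in Hif1a Ahr KO cells is plotted against the sum of the Hif1a KO and Ahr KO changes for each member, with SE bars on both axes and a dashed line of equality. Points run along the line, from Cd160 at -2.12 to Pdcd1 at 4.28 on the vertical axis.

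Genes beside the members on the chromosome were looked up after the members' values were seen, with gene order from an annotation of the earlier mouse build. Ptms, which encodes parathymosin, lies next to Lag3 on chromosome 6 on the same strand. It stood at -0.21 (log2; adjusted p = 0.182) in the Hif1a line and fell by 0.77 (adjusted p = 0.000905) in the Ahr line and by 1.20 (adjusted p = 9.18e-07) in the Hif1a Ahr line, beside -0.20, -0.85 and -1.23 for Lag3. On chromosome 16, Cd200r4 and Cd200r2 follow Cd200r1. Cd200r4 fell by 0.90 (adjusted p = 0.0136) in Ahr KO and by 1.73 (adjusted p = 1.65e-05) in Hif1a Ahr KO cells, and Cd200r2 fell by 1.98 (adjusted p = 0.0300) and 1.47 (adjusted p = 0.0323). Cd200r3, also tested, was not called by edgeR in Ahr KO (-0.38, adjusted p = 0.799) or Hif1a Ahr KO cells (-0.84, adjusted p = 0.322). The Cd200 receptor genes are close copies, so how reads were divided among them is uncertain.

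On chromosome 11, Cd300a lies between Gprc5c, an orphan receptor gene, and the activating family member Cd300lb. Cd300lb rose by 3.13 (adjusted p = 9.11e-07) in Hif1a KO and 2.60 (adjusted p = 6.66e-06) in Hif1a Ahr KO cells, from group means of 1.97 to 17.3 CPM and of 1.87 to 11.4 CPM. Cd300lf, another inhibitory member, rose by 0.99 (adjusted p = 0.00106) and 1.42 (adjusted p = 4.92e-05). All 3 Cd300 family genes tested, Cd300a included, thus rose in both lines that lost Hif1a, and none was called in the Ahr line; these too are copies whose reads may be divided wrongly. Gprc5c was at 0 to 2 counts in every flox library and rose to 46.1 to 66.1 counts in Hif1a KO and 29.0 to 51.0 in Hif1a Ahr KO libraries. Rab37, between Cd300lb and Cd300lf in that order, rose by 1.36 in Hif1a KO and fell by 1.54 in Ahr KO cells. Icos, the costimulatory receptor gene next to Ctla4, fell by 0.93 (adjusted p = 0.000686) in Hif1a KO cells and was not called in Ahr KO (0.14) or Hif1a Ahr KO cells (-0.02). Other called neighbours did not follow their member in every line. St8sia4, near Pdcd1, rose by 0.64 in Hif1a KO and fell by 0.92 in Ahr KO and 0.59 in Hif1a Ahr KO cells. Gpr162, near Lag3, and B4galt4, near Tigit, rose by 1.35 and 2.06 in Hif1a KO cells, where those members were not called. Pdzk1 overlaps Cd160 on the opposite strand at group means of 0.462 to 1.28 CPM, beside 20.8 to 123 for Cd160. Pdzk1 fell by 1.47 in Hif1a Ahr KO cells (adjusted p = 0.00577 by edgeR). It was not called in Ahr KO (-1.09, adjusted p = 0.0931) or Hif1a KO cells (0.30, adjusted p = 0.564).

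**Figure D5:**
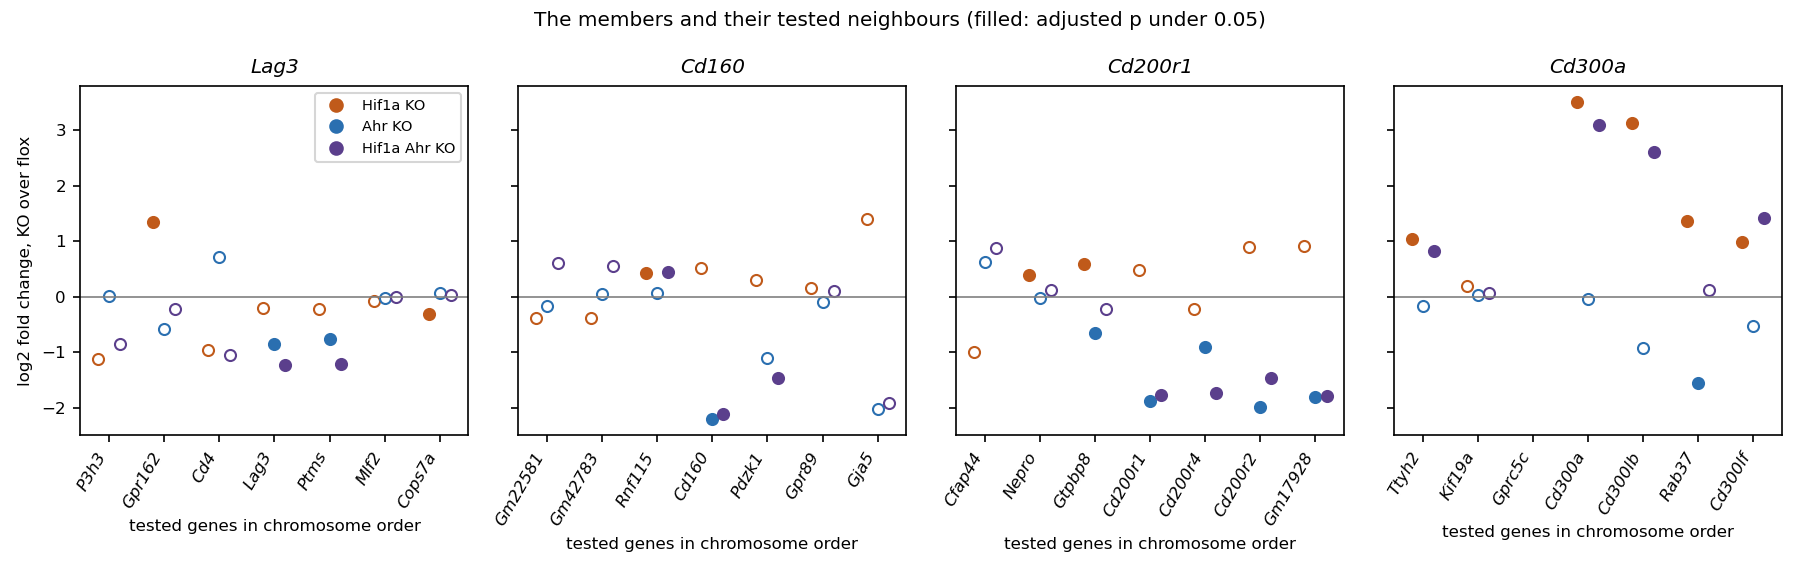
The log2 fold change of KO over flox is plotted for Lag3, Cd160, Cd200r1 and Cd300a and the 3 tested genes on each side, in chromosome order; filled points have an adjusted p under 0.05. Gprc5c has no points because its flox libraries held 0 to 2 counts; Ptms lies at the height of Lag3, and the Cd200r and Cd300 neighbours lie on the same side of 0 as their member in the lines where the member was called.

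For members above 1 CPM that were called in at least 1 line, the genes with the most similar pattern were found by Pearson's r of log2 CPM over the 18 libraries, among 10704 genes; r is a description here, since libraries of a group share its level. Cd160 was closest to Ahrr (0.982), the AhR repressor gene and a known AhR target, and to Susd3 (0.975). Cd200r1 was closest to Ccdc80 (0.975) and Nmur1 (0.968), the neuromedin U receptor. Lag3 was closest to its neighbour Ptms (0.975) and to Ddx58 (0.974). Entpd1 was closest to Kif2a (0.988) and Pik3ap1 (0.986), Havcr2 to Mlx (0.984) and the granzyme gene Gzme (0.984), and Ctla4 to Rnf183 (0.971) and Ccr1l1 (0.964). Cd300a was closest to Acss1 (0.984) and Sec14l1 (0.983), and Tigit to Plek and Rapgef1 (both 0.906).

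Ligands of these receptors were also transcribed in the cultures. The counts in this list and in those that follow stand beside the shares over all genes tested. In Hif1a KO cells 17.6% of all genes rose and 17.8% fell. In Ahr KO cells 2.14% rose and 4.78% fell, and in Hif1a Ahr KO cells 14.8% and 16.5%. Whether any list departed from these shares was not tested. Of 13 ligand genes tested (the median log2 change was -0.16, -0.15 and -0.11 in the 3 lines), 2 rose and 2 fell in Hif1a KO, 0 rose and 1 fell in Ahr KO, and 2 rose and 4 fell in Hif1a Ahr KO cells. Pvr, the TIGIT ligand, fell by 0.85 in Hif1a KO cells (log2; adjusted p = 2.14e-05), from 25.8 ± 1.09 to 14.3 ± 0.65 CPM (SD, n = 3), and by 0.88 (adjusted p = 1.48e-05) in Hif1a Ahr KO cells. Lgals9, which encodes the TIM-3 ligand galectin 9, rose by 0.57 and 0.35 in the same groups, and Lgals3, for the LAG-3 ligand galectin 3, fell by 1.09 and 1.24. Nectin3 fell by 1.34 in Ahr KO and 1.56 in Hif1a Ahr KO cells. Cd200, for the ligand of the Cd200r1 product, rose by 2.66 in Hif1a KO cells (adjusted p = 0.00271 by edgeR). It was not called in Ahr KO (-1.36) or Hif1a Ahr KO cells (1.06). The PD-1 ligand gene Cd274 was not called in any line (-0.18, -0.11 and -0.14).

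Of 12 paired activating or costimulatory receptors tested (median -0.47, 0.02 and -0.36), 2 rose and 7 fell in Hif1a KO, 0 and 2 in Ahr KO, and 1 and 6 in Hif1a Ahr KO cells. Cd96, which shares the poliovirus receptor with TIGIT, was counted in this list. Whether it activates or inhibits these cells was not tested. Cd96 rose by 0.58 in Hif1a KO and fell by 1.29 in Ahr KO and 0.66 in Hif1a Ahr KO cells. The SLAM family genes Slamf7 and Cd244a fell by 0.96 and 0.48 in Hif1a KO and by 0.80 and 0.77 in Hif1a Ahr KO cells. Cd226, the activating counterpart of TIGIT, was not called (0.70, -0.32 and -0.25; adjusted p from 0.103 to 0.652). Among 11 other inhibitory receptors tested (median -0.15, 0.14 and 0.01), Vsir, which encodes VISTA, fell by 1.38 in Hif1a KO (331 ± 48.1 to 127 ± 13.9 CPM, SD, n = 3) and 1.57 in Hif1a Ahr KO cells. In that list 2 rose and 3 fell, 0 and 1, and 1 and 3 in the 3 lines in the same order.

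Of 30 other genes of the adenosine pathway tested (median -0.01, -0.08 and 0.02), 7 rose and 7 fell in Hif1a KO, 0 and 7 in Ahr KO, and 4 and 9 in Hif1a Ahr KO cells. Cd38, an ectoenzyme of a second route to adenosine, fell by 0.76 in Ahr KO (adjusted p = 0.000124) and by 1.05 (adjusted p = 2.72e-07) with both genes deleted. The ATP receptor gene P2rx7 fell in all 3 lines, by 1.40, 1.76 and 1.91, and P2rx4 fell by 1.77 in Ahr KO and 1.36 in Hif1a Ahr KO cells. Ada, for the adenosine deaminase that removes adenosine, rose by 0.74 in Hif1a KO cells (adjusted p = 0.000245), while the adenosine receptor gene Adora2a was not called (-0.45, 0.34 and -0.15). Among 16 signalling genes tested (median -0.07, 0.08 and -0.05), the EAT-2 genes Sh2d1b1 and Sh2d1b2 fell by 0.47 and 1.74 in Hif1a KO and by 0.46 and 1.54 in Hif1a Ahr KO cells, and Ptpn6, for the phosphatase SHP-1, fell by 0.69 and 0.84. That list had 2 rising and 5 falling genes, 1 and 2, and 1 and 3 in the 3 lines. Of 17 transcription factor genes linked to exhaustion (median -0.02, -0.02 and 0.21), 7 rose and 7 fell in Hif1a KO, 1 and 2 in Ahr KO, and 6 and 6 in Hif1a Ahr KO cells. Tcf7 rose by 2.39 in Hif1a KO and 1.82 in Hif1a Ahr KO cells and fell by 1.82 in Ahr KO cells. Maf rose by 0.41 in Hif1a KO cells and fell by 1.06 in Ahr KO and 0.79 in Hif1a Ahr KO cells, and Prdm1 fell by 1.28 in Hif1a KO and 1.08 in Hif1a Ahr KO cells.

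Transcripts listed as markers of other cell types moved with some of these groups. Which cells of the cultures held them was not tested. The 7 mast cell and basophil markers summed to 126 to 174 CPM in Hif1a flox and 9.52 to 35.0 in Hif1a KO, 97.2 to 121 in Ahr flox and 171 to 214 in Ahr KO, and 95.9 to 166 in Hif1a Ahr flox and 37.4 to 70.2 in Hif1a Ahr KO libraries. Nearly all of it was Mcpt8, while Fcer1a, Ms4a2 and Tpsb2 had group means of 0.0182 CPM or less. Havcr2 stood in the same order as this sum, with no overlap between KO and flox in any line for either. The 12 T cell markers summed to 543 to 628 CPM in flox and 450 to 529 in KO libraries, mostly Trbc1, with Cd3e at group means of 0.349 to 2.98 and Cd4 at 0.207 to 0.983. Taking the 3 lines in the order used above, 0, 0 and 1 of them rose and 4, 2 and 3 fell. Cd3d fell by 2.24, 1.06 and 2.30, Cd3g fell from means of 53.9 to 6.17, 74.2 to 26.2 and 83.5 to 8.56 CPM, and Trdc rose by 0.50 with both genes deleted. The regulatory T cell gene Foxp3 stood at 0.0733 or less. The 9 macrophage and monocyte markers summed to 34.3 to 43.0 CPM in Hif1a flox and 51.9 to 55.8 in Hif1a KO libraries, and to 31.5 to 55.6 in Ahr flox and 24.2 to 30.2 in Ahr KO libraries, without overlap in either line. In Hif1a Ahr flox and KO libraries they summed to 38.7 to 46.3 and 38.3 to 47.6. Most of it was Cd68. Csf1r stood at 2.59 and 0.272 in Hif1a flox and KO cells, and Adgre1, Fcgr1 and C1qa at 0.0548 or less in all groups. In Hif1a KO cells Cd68 rose (log2 change 0.747) while Csf1r (-3.241), Lyz2 (-3.257) and Cd14 (-1.894) fell. Csf1r and Lyz2 also fell in Hif1a Ahr KO cells, where Cd68 and Cd14 were not called. In Ahr KO cells Cd68 fell (-1.043), and Csf1r, Lyz2 and Cd14 were not called. The 6 dendritic cell markers, nearly all of it Itgax, summed to 190.4 to 233 CPM in Hif1a flox and 323 to 390.2 in Hif1a KO libraries, and 143 to 219.8 in Hif1a Ahr flox and 265 to 310.2 in Hif1a Ahr KO libraries, the lines in which Cd300a rose, with Siglech at 0.0439 or less. Itgax rose by 0.71 and 0.78 in these lines, while Xcr1 of the same list stood at -1.02 (adjusted p = 0.0637) in the former and fell by 3.40 in the latter. The 6 B cell markers, nearly all of it Ighm, summed to 76.7 to 87.5 CPM in Ahr flox and 96.6 to 129 in Ahr KO, and 52.5 to 65.9 in Hif1a Ahr flox and 99.4 to 125 in Hif1a Ahr KO libraries, the lines in which Lag3, Cd160 and Cd200r1 fell. Ighm rose by 0.53 and 0.97 there and Cd79b fell by 1.43 and 2.26. In Hif1a flox and KO libraries that sum was 69.5 to 84.2 and 74.9 to 101. The 6 neutrophil markers summed to at most 5.01 CPM in any library. Their sums were 1.1 to 4.84 CPM in Hif1a flox and 0.0853 to 0.138 in Hif1a KO libraries. Hif1a Ahr flox libraries held 0.91 to 5.01 CPM and Hif1a Ahr KO libraries 0.157 to 0.359, again without overlap. The sums of Ahr flox (0.432 to 1.54) and Ahr KO libraries (0.477 to 1.32) overlapped. S100a8, S100a9 and Elane were called lower wherever Hif1a was deleted, Mpo only with both genes deleted, and no tested marker in Ahr KO cells. The part of any of these transcripts in the members' changes was not tested.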

How the data were processed

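RNA from 18 libraries of cultured mouse spleen NK cells was sequenced from a strand-specific mRNA kit, per the labels' protocols. The authors used Trim Galore 0.6.4, kallisto 0.4.6, edgeR 3.17 and GRCm39, per the submitters' processing notes; the annotation and settings are not given in the sources used here. The deposited tables hold kallisto's estimated counts per gene and log2 CPM values; the log2 values were recomputed from the counts (prior count 2) and differed by at most 1e-09. Libraries held 54420649 to 55732940 counts. Identifiers were matched to symbols for 52029 of 56953 genes, and those without one held 0.32% of counts. No replicate pair agreed within sampling noise (chi-square per degree of freedom 16.3 to 68.1).

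Estimated counts went unrounded into edgeR 4.0.16 (R 4.3.3): TMM scaling, filterByExpr by group, 1 mean per group over all 18 libraries, and the robust quasi-likelihood test with Benjamini-Hochberg adjustment over 16747 genes, threshold 0.05. The script was tested on simulated data. Each KO group was compared with its own flox group, the changes were compared between lines, and the flox groups with each other. The alternatives were limma voom 3.58.1, DESeq2 1.42.0 on rounded counts, other scaling, 2 other filters, fits per line, a replicate block, and leaving out each library.

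The members and lists were chosen with earlier results of these data known. All members were named, with up to 4 called genes per list and comparison and 2 most similar genes per member above 1 CPM and called in a line. Deviations of same-numbered KO and flox libraries (9987 genes at a mean of at least 5 CPM) correlated at 0.318, 0.538 and 0.298 in the Hif1a line and 0.425, 0.373 and 0.513 in the Ahr line, so these were read as pairs; the labels do not say what a number shares. In the Hif1a Ahr line 1 pair was under 0.1.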

Additional observations from a re-analysis of the deposited data

Results flagged for a closer look

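Of the tests between lines, 18 differences in change (log2, edgeR's quasi-likelihood test with Benjamini-Hochberg adjustment) passed the threshold for members. Between the Hif1a and the Ahr change they were Cd300a 3.55, Cd160 2.73, Cd200r1 2.37, Nt5e 1.42, Lag3 0.65, Tigit -0.58, Entpd1 -1.61, Havcr2 -2.37 and Ctla4 -2.76. Between the Hif1a Ahr and the Hif1a change they were Pdcd1 2.63, Havcr2 1.13, Tigit 0.60, Lag3 -1.03, Cd200r1 -2.26 and Cd160 -2.64. Between the Hif1a Ahr and the Ahr change they were Cd300a 3.12, Havcr2 -1.24 and Entpd1 -1.64. The values of every library behind them are in the results above.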

How the results depend on the processing

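Of 1292 values recomputed for single members, 1196 kept their direction and their side of the threshold, 47 lost a call, 18 gained one and 31 changed sign. All 31 sign changes were in differences that were not called. With the replicate block 8 members were called in the Ahr line and 6 differed between the Hif1a Ahr and the Ahr change, beside 4 and 3. In the Hif1a Ahr line, where the numbers were not read as pairs, the block gave calls to Ctla4 (-0.73; adjusted p = 0.00268) and Nt5e (0.39; adjusted p = 0.00971). It also called Ctla4 against the Hif1a change (1.54; adjusted p = 0.00063) and, against the Ahr change, Ctla4 (-1.25; adjusted p = 0.00128), Nt5e (1.09; adjusted p = 0.000193) and Lag3 (-0.39; adjusted p = 0.0394).

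Leaving out 1 library at a time gave 3 to 6 members for the Hif1a Ahr against the Hif1a change, with the lowest count without Hif1a KO replicate 2 or Hif1a Ahr flox replicate 1. It moved Cd300a in the Ahr line between -0.27 and 0.0948. For the Hif1a Ahr against the Hif1a change it moved Entpd1 between -0.17 and 0.15. For the Hif1a Ahr against the Ahr change it moved Cd160 between -0.28 and 0.46, Cd200r1 between -0.14 and 0.49 and Tigit between -0.10 and 0.14; Cd160 was -0.0485 with the block and -0.0723 by limma voom, and Cd200r1 -0.0496 by limma voom. Against the sum of single changes it moved Cd200r1 between -0.62 and 0.00636, Entpd1 between -0.30 and 0.0183 and Pdcd1 between -1.14 and 0.36.

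Counts over all genes moved more. In the Ahr line 1159 genes were called, 2423 with the block and 467 to 1333 with a library left out. The Hif1a Ahr line had 5245, and 3100 in a fit of its own 6 libraries. The Hif1a Ahr and Hif1a changes differed for 1613 genes, 3159 with the block and 754 to 2405 with a library left out. Departures from the sum numbered 6, with 35 under the block, 24 by DESeq2 and 5 to 14 with a library left out. Flox groups differed for 41 genes and 27 to 45 with a library left out. Pdcd1 rests on 0 to 20 counts outside Hif1a Ahr KO libraries, and 3 libraries a group limit every interval.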
